A study of Mus musculus with 6 samples.

Results

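The 10 cytokine feedback genes described here were selected by symbol from the gene table of cultured brain ILC2, namely the SOCS family genes Cish, Socs1, Socs2, Socs3, Socs4, Socs5 and Socs7 and the PIM kinase genes Pim1, Pim2 and Pim3. All 10 were among the 24421 gene rows of the table, and all 10 were among the 11805 rows that passed the filter on low counts. ILC2, group 2 innate lymphoid cells, make type 2 cytokines and lack the rearranged receptors of T and B cells. The young group held 3 libraries of brain ILC2 from C57BL/6 mice aged 2 to 3 months. The aged group held 3 libraries from C57BL/6 mice aged 20 to 22 months. Cells of both groups were sorted by surface markers and then grown for 2 weeks in medium with fetal calf serum, stem cell factor and the interleukins IL-2, IL-7 and IL-33, so no library was free of these cytokines. The labels give no sex, no number of mice and no statement on whether a library is a separate animal, culture or pool. The p-values therefore measure the spread between these libraries, which may be technical.

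IL-2 and IL-7 bind receptors that share the common gamma chain and activate the kinases JAK1 and JAK3, which phosphorylate STAT5. STAT5 in turn switches on Cish, several Socs genes and Pim genes. CIS and the SOCS proteins carry an SH2 domain, which binds phosphorylated receptors or kinases, and a SOCS box, which recruits a ubiquitin ligase, and so they limit the signal that induced them. The PIM proteins are serine/threonine kinases that are active once made, so their amount depends largely on transcription and turnover, and they favour survival, growth and translation. IL-33 signals through MyD88 and NF-kB, and stem cell factor through the receptor tyrosine kinase KIT.

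The promoters of the 3 genes that passed the test for a higher level in aged libraries, Pim3, Pim2 and Socs3, are shown because these genes moved in the same direction. Each is the part of the 250 bases before the RefSeq start (GRCm38.p6) that no GENCODE exon of the gene covers, read on the strand of the gene. Capitals mark TTCNNNGAA, the letters of a STAT binding motif, which read the same on both strands. The Pim3 stretch lies at chr15:88861944-88862185 (plus strand), the Pim2 stretch at chrX:7878056-7878261 (plus strand) and the Socs3 stretch at chr11:117969452-117969616 (minus strand). The Socs3 stretch lies before the RefSeq start but inside the GENCODE span of the gene (117966079 to 117970047), between its exons.
Pim3: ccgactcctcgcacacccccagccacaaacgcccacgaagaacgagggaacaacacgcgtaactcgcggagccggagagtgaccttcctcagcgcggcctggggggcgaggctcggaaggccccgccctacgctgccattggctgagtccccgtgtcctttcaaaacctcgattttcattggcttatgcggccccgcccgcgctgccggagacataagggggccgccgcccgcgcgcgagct
Pim2: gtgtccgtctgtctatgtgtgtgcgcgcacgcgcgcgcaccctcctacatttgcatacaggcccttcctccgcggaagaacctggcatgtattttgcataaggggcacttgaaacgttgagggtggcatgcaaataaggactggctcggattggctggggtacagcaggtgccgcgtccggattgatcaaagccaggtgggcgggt
Socs3: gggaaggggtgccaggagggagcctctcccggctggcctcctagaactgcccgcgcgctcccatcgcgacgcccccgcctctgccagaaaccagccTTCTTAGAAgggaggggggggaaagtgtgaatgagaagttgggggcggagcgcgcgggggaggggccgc
The Socs3 stretch held 1 match, TTCTTAGAA, whose first base lies 154 bases before the RefSeq start. RefSeq promoters were matched for 7 of the 10 genes, and TTCNNNGAA was found in the 250 bases before the start of 1 of these 7. Of all 27025 genes with a promoter, 8.13% held it in a window of that length before any of their starts. A STAT6-type motif with a longer spacer (6.76% of these genes) and the AP-1 letters TGANTCA (7.82%), each the same on both strands, were found in none of the 7. The kappaB motif (5.74%) reads differently on the opposite strand. It was searched on the strand of the gene only, where none of the 7 held it. A match describes letters in this window and is not a binding site, and no match says nothing about the factor.

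Library totals ran from 16477157 to 20804291 counts. All 10 ILC2 markers had counts, with sums of 11966.5 to 14750.5 CPM (counts per 1000000 counts of the library) in young and 9492 to 11396 CPM in aged libraries. The sums hide opposite directions. Means in young and aged libraries were 476.9 and 165.4 CPM for Gata3, 563.4 and 239.3 for Il1rl1, 191.5 and 58.1 for Icos and 6148 and 2802 for Il5. Il13, Rora, Il7r and Ptprc also had the lower mean in aged libraries. Id2 (4307 and 5630 CPM) and Thy1 (74.7 and 123.5 CPM) had the higher. The 4 NK cell and ILC1 markers Eomes, Tbx21, Ncr1 and Klrb1c were at 0, as were Cd3e, Cd4 and Cd8a of the 6 T cell markers, Cd79a, Ms4a1 and Pax5 of the 5 B cell markers and Csf1r of the 7 microglia and macrophage markers. Among T and B cell markers with counts, Cd3g had a mean of 10.98 CPM in the young and 7.35 CPM in the aged group, and Cd79b of 21.9 and 38.7 CPM. Summed B cell markers, with counts in Cd79b alone, ran from 15.96 to 25.7 CPM in the young group and from 27.9 to 51.6 CPM in the aged group. Summed dendritic cell markers (5 of 6 with counts, Clec9a at 0) ran from 76.6 to 98.7 CPM and from 270.1 to 297.1 CPM, nearly all of it Batf3 (means 77.7 and 273.7 CPM), while Flt3, Xcr1, Zbtb46 and Itgax had means of at most 5.36 CPM. Microglia and macrophage markers (6 of 7 with counts) ran from 10.4 to 25.2 CPM and from 45.1 to 73.1 CPM. Of these, Tmem119 (0.794 and 43.97 CPM) and P2ry12 (2.89 and 13.4 CPM) had the higher mean in aged libraries, and Cx3cr1, Aif1, Adgre1 and Cd68 the lower. Fibroblast and meningeal markers (3 of 4 with counts) ran from 9.61 to 17.7 CPM and from 0 to 0.113 CPM, nearly all of it Dcn (13.6 and 0 CPM). The part of other cells, or of these single genes, in the results below was not tested. In bulk libraries, fewer cells that express a gene and less of its RNA per cell cannot be told apart.

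Of the 10 feedback genes, Pim3, Socs3 and Pim2 were higher in aged than in young libraries at an adjusted p under 0.05 (edgeR's quasi-likelihood test, Benjamini-Hochberg over all genes tested), and none was lower. Among all genes tested, 11.2% were called higher and 8.14% lower. Without adjustment, at p under 0.05, the same test gave 3 genes higher and 1 lower, Socs5. Shares of all genes at an unadjusted p under 0.05 are not reported here, also for the lists below. At an adjusted p under 0.05, DESeq2 called 3 higher and 1 lower, again Socs5 (13.9% and 10.4% of all genes). On the same threshold limma-voom called 3 and 0 (12.1% and 8.45%), and edgeR with the replicate number as a block called 3 and 0 (10.2% and 6.78%). The median log2 change of the 10 genes was 0.37, and that of all genes tested was -0.10. The libraries of the groups did not overlap for 4 of the genes in the higher direction (Socs2, Socs3, Pim2 and Pim3) and for 1 in the lower direction (Socs5), where 19.3% and 18.8% of all genes tested did not overlap. Socs1 and Cish, the most abundant genes of the set, did not pass with TMM scaling but were called lower with library totals as the scaling.

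**Figure D1:**
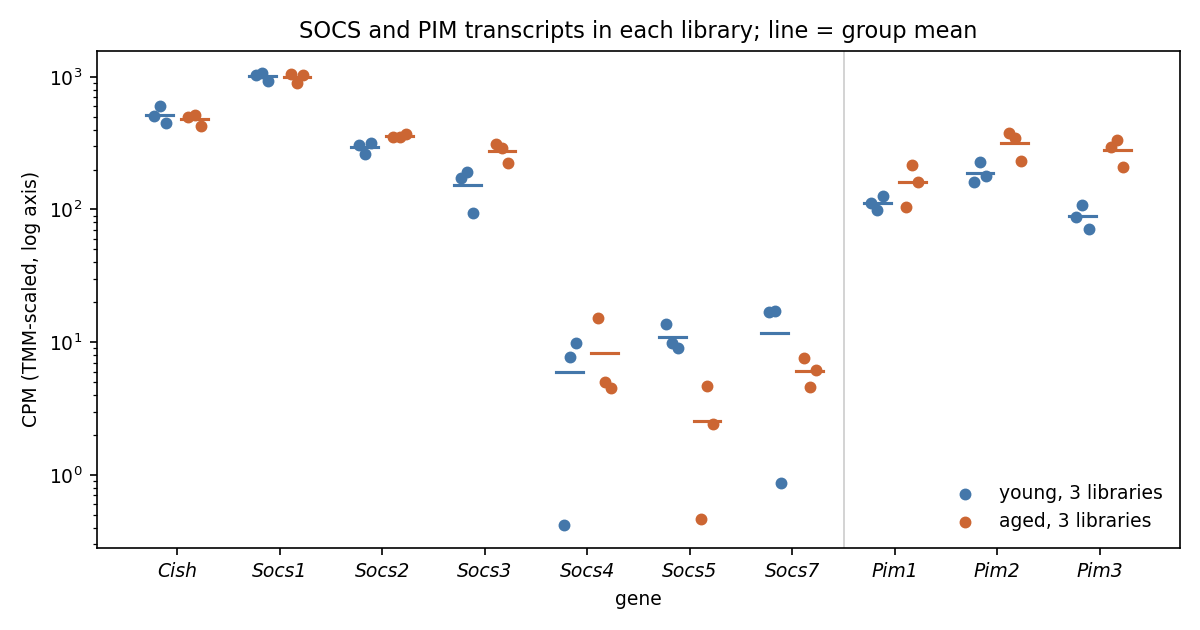
CPM scaled by TMM (log axis) of each of the 10 genes, with 1 point per library and a line at each group mean, young in blue and aged in orange. All 3 aged libraries lie above all 3 young libraries for Socs2, Socs3, Pim2 and Pim3, while Socs4, Socs5 and Socs7 each have a library far below the others of its group.

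Among the PIM kinases, Pim3 moved most. Pim3 (chromosome 15, 88862186 to 88865726, GRCm38) encodes a kinase known for promoting protein synthesis and survival. Its level was 87.6, 108.8 and 70.7 CPM in young libraries 1 to 3 and 295.6, 333.4 and 208.0 CPM in aged libraries 1 to 3, all scaled by the trimmed mean of M values (TMM). The lowest aged library thus stood above the highest young library. The fitted log2 change was 1.65 ± 0.22 (SE; adjusted p = 0.000465, edgeR), a 3.13-fold rise, with a 95% interval of the log2 change of 1.17 to 2.13. It stayed called in each of the 18 alternatives run, with log2 changes from 1.22 to 1.83.

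Pim2 (chromosome X, 7878262 to 7883432), a PIM kinase induced by cytokines in lymphocytes, was at 162.3, 228.5 and 177.3 CPM in young libraries. It was at 379.2, 346.8 and 231.4 CPM in aged libraries. The groups did not overlap, but aged library 3 lay just above young library 2. The log2 change was 0.75 ± 0.21 (SE; adjusted p = 0.0252, edgeR). The call was lost in 8 of the 18 alternatives. These included library totals as the scaling (0.33), an offset for transcript length and GC content (0.41), and 4 of the fits that left out a library. Their adjusted p was 0.111 with young library 1 left out, 0.0607 with young library 3, 0.101 with aged library 1 and 0.0926 with aged library 2 (edgeR). With another measure of transcript length the sign turned (-0.13).

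Pim1 (chromosome 17, 29490753 to 29496112), the founding member of the family and a STAT5 target, did not pass the test. Its young libraries were at 112.3, 99.7 and 125.7 CPM and its aged libraries at 104.5, 216.1 and 160.7 CPM. Aged library 1 lay within the young range while the other two aged libraries lay above it. The log2 change was 0.51 ± 0.24 (SE; adjusted p = 0.177, edgeR), with a 95% interval of -0.02 to 1.04. Without aged library 1 the change was 0.74 and passed (adjusted p = 0.0390). An antisense gene on the opposite strand overlaps 14.5% of the exon length of Pim1, and since the strand setting of the counting is not known, the count is uncertain.

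The makeup of PIM transcripts was compared after division by transcript length. Pim3 made up 21.4 ± 2.97% of summed PIM CPM per kb in young and 34.6 ± 1.27% in aged libraries (n = 3 each, SD). Pim2 was the largest share in all 6 libraries, at 53.9 ± 3.63% and 47.1 ± 5.66%. With the summed exons of the GENCODE basic set as the length, the Pim3 share was 15.1 ± 2.04% and 25.3 ± 1.05%. Summed PIM CPM per kb of the longest transcript was 171.0 ± 19.7 in young and 330.5 ± 65.7 in aged libraries. The ratio of Pim3 to Pim2 counts, which no scaling of libraries can alter, was 0.539, 0.476 and 0.399 in young and 0.780, 0.961 and 0.899 in aged libraries. These ratios did not overlap (exact permutation test, two-sided, p = 0.1, which no result from 20 arrangements can go below; 0.175 adjusted over the 7 ratios computed).

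**Figure D2:**
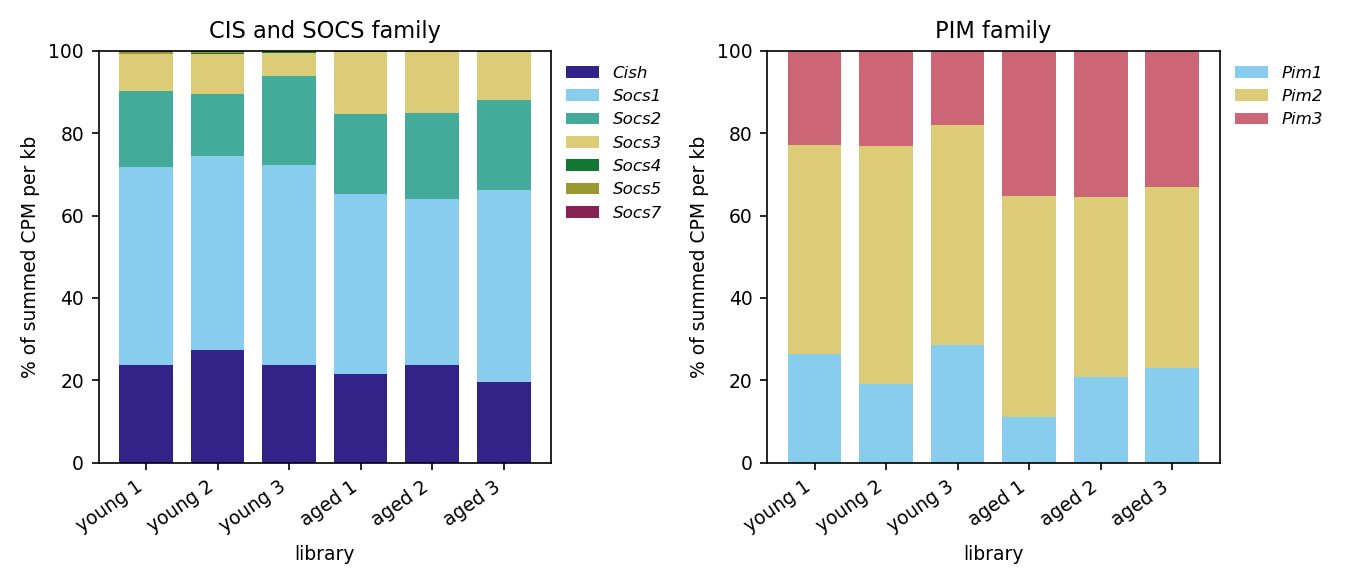
Stacked bars of the share of each gene in the summed CPM per kb of its family (%), 1 bar per library, for the CIS and SOCS genes (left) and the PIM genes (right). The Pim3 share lies between 17.9% and 23.2% in young and between 33.2% and 35.5% in aged libraries, and the Socs3 share is higher in each aged library than in any young library.

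Socs3 was the gene of the SOCS family that passed the test. Socs3 (chromosome 11, 117966079 to 117970047) encodes an inhibitor that binds the IL-6 receptor chain gp130 and blocks JAK kinases, and it is a target of STAT3 as well as other STATs. Its level was 172.6, 191.9 and 94.3 CPM in young and 310.1, 289.0 and 224.5 CPM in aged libraries. Young library 3 was well below the other young libraries, and all aged libraries were above all young ones. The log2 change was 0.84 ± 0.24 (SE; adjusted p = 0.0332, edgeR), a 1.79-fold rise, with a 95% interval of the log2 change of 0.30 to 1.38. Without young library 3, the lowest, the change was 0.62 and still passed (adjusted p = 0.0385). It did not pass with young library 1 left out (adjusted p = 0.0625), with aged library 1 left out (0.106) or with aged library 2 left out (0.0990), nor with library totals as the scaling (log2 change of 0.42, adjusted p = 0.253). With the length and GC offset it held at 0.64 (adjusted p = 0.0213). The ratio of Socs3 to Socs1 counts ran from 0.101 to 0.181 in young and from 0.219 to 0.323 in aged libraries (two-sided exact permutation p = 0.1; 0.175 adjusted over the 7 ratios).

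Transcripts of Il6ra and Il6st, the receptor chains through which IL-6 reaches STAT3, were too low to be tested, at mean levels of 0.0475 and 0.176 CPM in young and 0.638 and 0.382 CPM in aged libraries.

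Socs1 was the most abundant of the 10 genes, with a mean of 1011 ± 68.8 CPM in the young group and of 988 ± 81.9 CPM in the aged group (n = 3 each, SD). Socs1 (chromosome 16, 10782240 to 10785536) encodes an inhibitor of JAK kinases that restrains responses to interferon gamma and to cytokines of the common gamma chain. It was at 1038, 1062 and 932 CPM in young and 1044, 894 and 1026 CPM in aged libraries, ranking 135 among all genes tested by mean CPM. The groups overlapped throughout. The log2 change was -0.03 ± 0.12 (SE; adjusted p = 0.892, edgeR), and its 95% interval of -0.30 to 0.23 spans ratios of 0.814 to 1.17. With library totals as the scaling the change was -0.45 and passed (adjusted p = 0.0221, edgeR).

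Cish (chromosome 9, 107296026 to 107302784) encodes CIS, a STAT5-induced inhibitor known for restraining IL-2 signalling in lymphocytes. It was at 502.3, 606.6 and 444.9 CPM in young and 501.2, 514.8 and 424.3 CPM in aged libraries. Of the aged libraries, 1 and 2 lay within the young range and 3 lay below it. The log2 change was -0.11 ± 0.15 (SE; adjusted p = 0.684, edgeR), with a 95% interval of -0.44 to 0.22. With library totals as the scaling it was -0.53 and passed (adjusted p = 0.0251, edgeR). Opposite-strand genes overlap 4.1% and 7.5% of the exon length of Cish.

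Socs2 (chromosome 10, 95385362 to 95417180), best known for limiting growth hormone signals and also a STAT5 target, was at 305.8, 259.7 and 315.8 CPM in young libraries. It was at 353.8, 353.1 and 369.3 CPM in aged libraries. All aged libraries were above all young ones, and the aged libraries were close together. The log2 change of 0.29 ± 0.14 (SE) did not pass (adjusted p = 0.172, edgeR), with a 95% interval of -0.01 to 0.59. With library totals as the scaling the sign turned (-0.13).

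Socs4, Socs5 and Socs7, which encode the SOCS proteins with long N-terminal regions, were the least abundant of the 10, at ranks 8500, 8640 and 8002 by mean CPM among the 11805 genes tested, and varied widely within groups. Socs5 (chromosome 17, 87107679 to 87137839) was at 13.8, 9.81 and 9.05 CPM in young and 0.464, 4.71 and 2.41 CPM in aged libraries. The groups did not overlap. The log2 change was -2.10 ± 0.80 (SE), which did not pass (adjusted p = 0.0960, edgeR). DESeq2 (-2.07, adjusted p = 0.0433) and library totals as the scaling (-2.53, adjusted p = 0.0383) did call it lower. The direction was the same in all 18 alternatives, from -2.91 to -1.61.

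Socs4 (chromosome 14, 47276931 to 47296102) had 8, 189 and 195 counts in young and 230, 74 and 71 counts in aged libraries. Socs7 (chromosome 11, 97362551 to 97398542) had 325, 425 and 17 counts in young and 114, 68 and 97 counts in aged libraries. A single young library stood far below the other two in each gene, library 1 for Socs4 and library 3 for Socs7. The exact Poisson 95% interval of the 8 Socs4 counts is 3.45 to 15.8 and that of the 17 Socs7 counts is 9.90 to 27.2. The log2 changes of 0.45 ± 0.94 for Socs4 and -0.94 ± 0.85 for Socs7 (SE) did not pass (adjusted p = 0.798 and 0.507, edgeR). Their 95% intervals, -1.62 to 2.53 and -2.80 to 0.92, include both directions, so a difference was not detectable at this spread. Without young library 1 the Socs4 change was -0.07, and without aged library 1 it was -0.34.

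Such within-group gaps were frequent at this level. Of 4815 tested genes with a mean of 2 to 20 CPM, the band of Socs4, Socs5 and Socs7, 23.1% had a range of at least 10-fold between the libraries of a group. Of the 1858 genes above 100 CPM, the band of the other 7 feedback genes, 0 did. In the lower band, between 106 and 195 genes per young library and between 222 and 290 per aged library were at least 10-fold below both other libraries of the group.

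Divided by the length of the longest coding transcript, the order in young libraries was Socs1 at 347.6 ± 23.7 CPM per kb, Cish at 181.7 ± 28.8, Socs2 at 132.2 ± 13.5, Pim2 at 92.6 ± 16.96, Socs3 at 59.9 ± 20.2, Pim1 at 41.7 ± 4.83 and Pim3 at 36.7 ± 7.88 (n = 3 each, SD). The order in aged libraries was Socs1 at 339.7 ± 28.2, Cish at 168.5 ± 17.1, Socs2 at 161.5 ± 4.13, Pim2 at 156.1 ± 38.0, Pim3 at 115.0 ± 26.5, Socs3 at 107.6 ± 17.5 and Pim1 at 59.5 ± 20.7. Socs5, Socs7 and Socs4 were below 3 CPM per kb in every library. Libraries of neighbouring genes overlapped between Pim1 and Pim3 and between Pim1 and Socs3 in young libraries. In aged libraries they overlapped among Cish, Socs2 and Pim2 and among Pim2, Pim3 and Socs3. Socs1 was above all other genes of the set in each library on this scale. The order depends on the length used. With the summed exons of the GENCODE basic set (1113 against 2045 bases for Pim2 and 3647 against 2850 for Cish), Pim2 was at 170.2 ± 31.2 CPM per kb in young libraries, above Cish at 142.0 ± 22.5 and Socs2 at 108.9 ± 11.1. In aged libraries Pim2 was at 286.7 ± 69.8 on that length, beside Socs1 at 339.7 ± 28.2, Socs2 at 133.0 ± 3.40 and Cish at 131.6 ± 13.4. The place of Socs1 above Pim2 in each library is given for the longest transcript only. Summed CPM per kb of the SOCS family was 726.3 ± 60.1 in young and 779.8 ± 34.1 in aged libraries, with Socs1 at 47.9 ± 0.787% and 43.6 ± 3.12% of the sum.

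The scaling sets the zero of these changes. TMM factors were 1.16 ± 0.0296 in young and 0.866 ± 0.0232 in aged libraries (n = 3 each, SD), so with library totals as the scaling the median log2 change of all genes tested moved by -0.42. On that scale 1 of the 10 genes was higher, Pim3 (1.22 ± 0.22), and 3 were lower. These were Cish, Socs1 and Socs5, with 6.08% of all genes called higher and 20.2% lower (SE, edgeR). The Cish and Socs1 changes on that scale were close to the shift of the median gene. The log2 change also fell with transcript length across genes (Spearman rho -0.364 over 11677 genes, which are not independent replicates). With the tested genes cut into 5 length classes of equal size, transcripts of Socs4 and Socs7 (6877 and 7015 bases) are in the longest class, whose median change was -0.50. Those of Pim2, Pim3 and Socs2 (2045, 2427 and 2222 bases) are in class 2 from the shortest, whose median was 0.04. With the length and GC offset, Pim3 (1.28 ± 0.14) and Socs3 (0.64 ± 0.16) stayed called, where 7.01% of all genes were called higher and 10.8% lower.

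**Figure D3:**
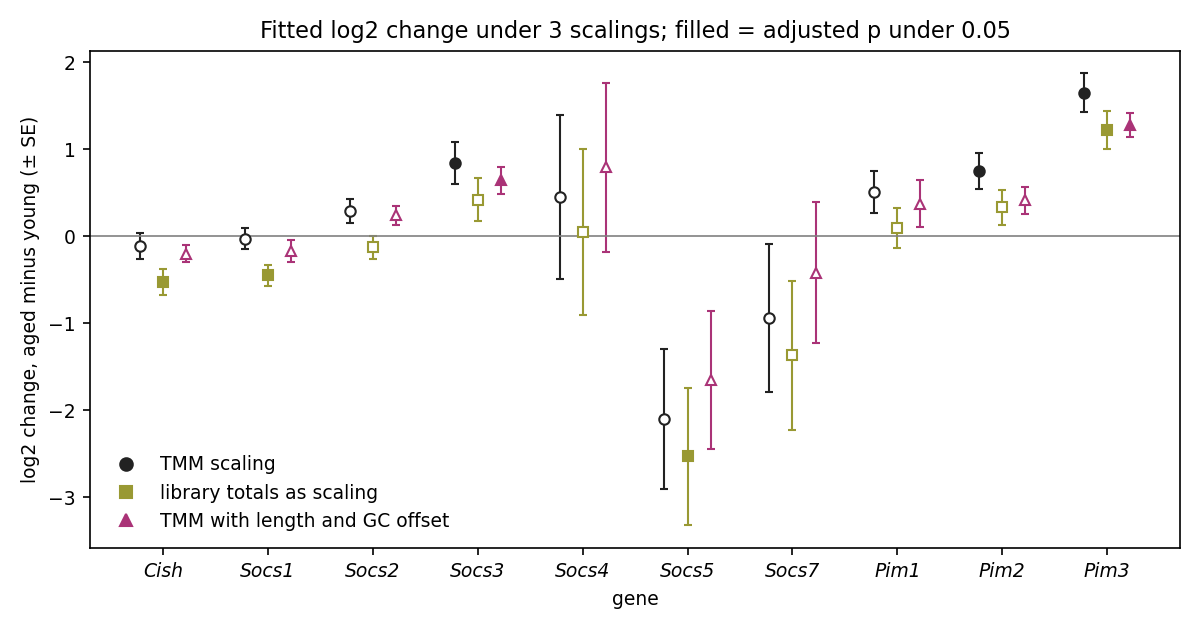
Fitted log2 change, aged minus young, with its SE, for each of the 10 genes under TMM scaling (circles), library totals (squares) and TMM with a length and GC offset (triangles); filled symbols have an adjusted p under 0.05. Pim3 is filled and above 1 in all 3 fits, Socs3 is filled in 2 of them, Pim2 in 1, and Cish, Socs1 and Socs5 are filled, below zero, with library totals alone.

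Counts and medians for the lists that follow are for TMM scaling, where 11.2% of all genes tested were called higher and 8.14% lower, unless another setting is named. Counts with library totals stand beside 6.08% of all genes called higher and 20.2% lower. Those with the length and GC offset stand beside 7.01% higher and 10.8% lower. Of 6 tested receptors of the culture cytokines 2 fell, Il2ra and Il1rl1, and none rose. With the length and GC offset Il2rb was called higher (0.48) and Il1rl1 lower, and with library totals Il2ra, Il2rg and Il1rl1 were called lower. Il2ra, the IL-2 receptor alpha chain, went from 1956 ± 185 to 1458 ± 87.4 CPM (log2 change of -0.42), a call lost with the length and GC offset (-0.18), with the replicate block and without young library 1 or 2 or aged library 1 or 2. Il1rl1, the IL-33 receptor chain, went from 487.8 ± 43.1 to 275.8 ± 48.7 CPM and fell by 0.82 ± 0.16 (SE of the log2 change; edgeR adjusted p = 0.00397). The shared gamma chain Il2rg (-0.07 ± 0.12), Il2rb (0.27 ± 0.16) and Il7r (0.32 ± 0.21) did not pass with TMM. Kit, the receptor of stem cell factor, was too low to be tested, with 9, 47 and 109 counts in young and 0 in all 3 aged libraries, where a floor of 3 counts over the group is 0.0657 CPM.

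Of 4 JAK kinases 2 fell and none rose. Jak1 went from 192.0 ± 26.5 to 98.1 ± 2.49 CPM (SD, n = 3 each) and fell by 0.97 ± 0.17 (SE; adjusted p = 0.00211, edgeR). Tyk2 fell by 2.09 ± 0.60, a call lost with the length and GC offset and without any of young libraries 1 and 2 and aged libraries 1 and 2. Jak3 had a change of -0.82 ± 0.29 that did not pass (adjusted p = 0.0690). Of 7 STAT factors 3 fell and none rose. Stat5a, a direct activator of Cish, went from 72.3 ± 23.8 to 26.5 ± 7.26 CPM and fell by 1.45 ± 0.31 (SE; adjusted p = 0.00761, edgeR). Stat5b fell by 1.15 ± 0.27, a call lost with the length and GC offset (-0.80) and without young library 1 or 2. Stat3, an activator of Socs3, had a change of -0.48 ± 0.23 that did not pass (adjusted p = 0.175). With library totals 4 of 4 JAK and 4 of 7 STAT genes were called lower, and with the length and GC offset Jak1 and Jak3 of the JAK genes and Stat5a of the STAT genes. The medians of the JAK and STAT lists with TMM were -0.90 and -0.76, beside -0.10 for all genes tested. With the length and GC offset they were -0.65 and -0.48, beside -0.19 for all genes.

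Among 16 tested receptors of other JAK-coupled cytokines 2 rose (Il21r and Ifnar2) and 4 fell, with a median of -0.41. The 2 that rose, 12.5% of the list, are beside the 11.2% of all genes called higher. Csf2rb, the shared chain for GM-CSF, IL-3 and IL-5, fell by 2.59 ± 0.31 (SE; adjusted p = 0.000278, edgeR). Ifngr1 and Ifngr2, the chains of the interferon gamma receptor that SOCS1 restrains, fell by 1.79 ± 0.41 and 1.37 ± 0.26. The 2 chains of the type I interferon receptor moved in opposite directions. Ifnar1 fell by 1.54 ± 0.40 (adjusted p = 0.0202, edgeR), a call lost without young library 1 but kept with library totals and with the length and GC offset. Il21r, another partner of the common gamma chain, rose by 0.90 ± 0.22 (adjusted p = 0.0157), and Ifnar2, the other type I interferon chain, by 0.83 ± 0.22 (adjusted p = 0.0237, edgeR). Both calls were lost with library totals as the scaling (0.47 and 0.41), where none of the 16 was higher and 7 were lower, and without young library 1, aged library 1 or aged library 2.

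Genes for the ubiquitin ligase that SOCS boxes recruit rose in 4 of 6 cases and fell in none, with a median of 0.84. That median was 0.43 with library totals and 0.20 with the length and GC offset, where the medians of all genes were -0.52 and -0.19. Rbx1, a RING subunit, went from 425.6 ± 66.7 to 1041 ± 29.2 CPM (SD, n = 3 each) and rose by 1.29 ± 0.14 (SE; adjusted p = 0.000117, edgeR). Elongin B (Tceb2 in the table) rose by 1.23 ± 0.13, Elongin C (Tceb1) by 0.82 ± 0.16 and Rnf7, the RING partner of Cullin 5, by 0.86 ± 0.17. With the length and GC offset the changes of Elongin B and Rnf7 were 0.03 and 0.23 and their calls were lost, leaving 2 of the 6 called. With library totals as the scaling Elongin C and Rnf7 lost their calls (0.41 and 0.44). Cul5 itself had a change of -0.11 ± 0.32 and did not pass. In the 5 other SOCS box adaptors tested none passed in edgeR (2 at an unadjusted p under 0.05), 1 in DESeq2 (Spsb1) and none in limma-voom. With library totals Wsb2 was called lower. The pair of smallest p was Spsb1 (2.28 ± 0.88) and Wsb2 (-1.01 ± 0.40).

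Other brakes on JAK-STAT signalling (phosphatases, PIAS proteins, CBL ligases and the adaptor LNK) had none of 12 tested genes called in edgeR, with 3 (Ptpn6, Pias4 and Sh2b3) at an unadjusted p under 0.05, against 1 in DESeq2 (Sh2b3) and none in limma-voom. In edgeR with the length and GC offset Sh2b3 was called higher and Ptpn6 and Pias4 lower, and with library totals Ptpn6, Ptprc and Pias4 were called lower. Sh2b3, which encodes LNK, had a change of 1.33 ± 0.45 (SE; adjusted p = 0.0602, edgeR) and Ptpn6, which encodes the phosphatase SHP-1, of -0.78 ± 0.30 (adjusted p = 0.0952). Their list had a median of -0.47.

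Of 12 other genes known as STAT5 targets 3 fell and none rose, with a median of -0.21. With library totals 6 were lower and none higher, and with the length and GC offset 4 were lower and 1, Bcl2, was higher. Ccnd2, a D-type cyclin, went from 1152 ± 107 to 689 ± 88.7 CPM and fell by 0.74 ± 0.13 (SE; adjusted p = 0.00314, edgeR), a call lost with the length and GC offset (-0.18). Gzmb, which encodes granzyme B, fell by 1.91 ± 0.42 (adjusted p = 0.00832), a call lost without young library 2, and Il2ra, given above, is also in this list.

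Among 14 tested genes for PIM substrates 1 rose and 2 fell, with a median of -0.40. These counts are near the shares of all genes called. With library totals 1 was higher and 6 lower, and with the length and GC offset 2 were higher and 3 lower. Eif4ebp1, the translation repressor 4E-BP1, went from 290.2 ± 5.95 to 973.3 ± 114.9 CPM (SD, n = 3 each) and rose by 1.75 ± 0.13 (SE; adjusted p = 1.24e-05, edgeR). Foxo1, a transcription factor of quiescence, fell by 1.59 ± 0.38 and Eif4b, a translation initiation factor, by 0.81 ± 0.18. The calls of Foxo1 and Eif4b were lost with the length and GC offset (-0.91 and -0.50). Leaving out young library 2 also ended that of Foxo1, and leaving out young library 1 that of Eif4b.

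**Figure D4:**
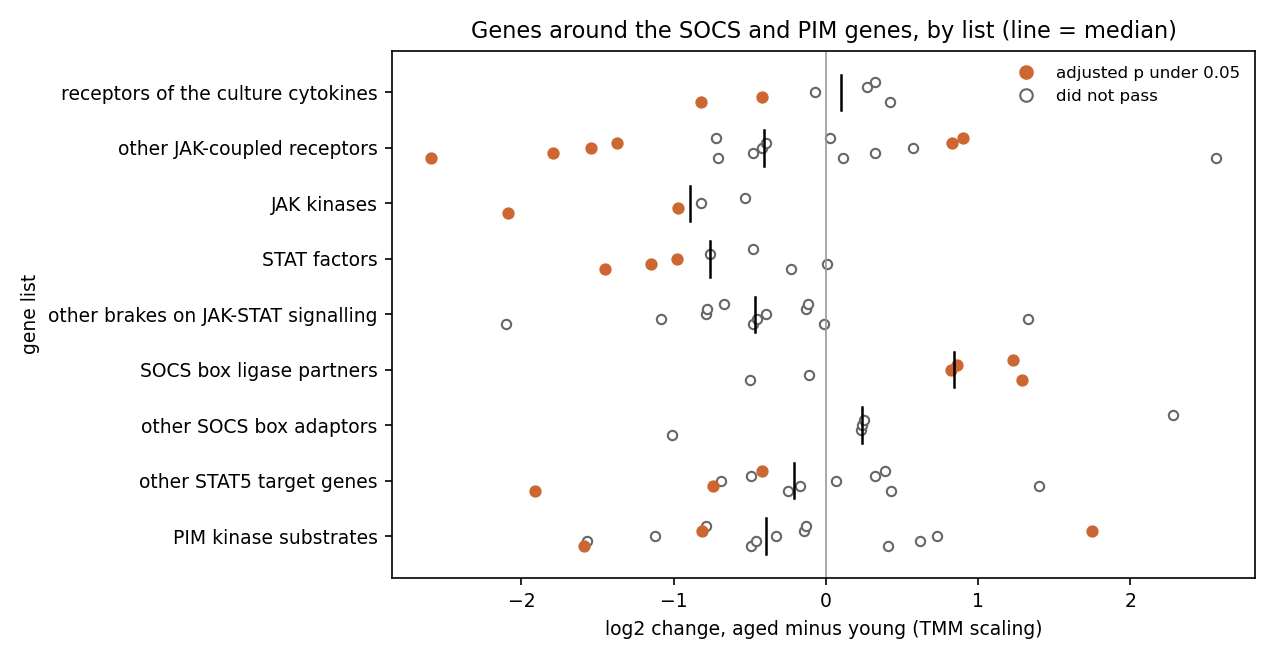
Log2 change, aged minus young, of each tested gene in 9 lists of genes around the SOCS and PIM genes, 1 row per list, with a line at the list median and filled points at an adjusted p under 0.05. Filled points of the JAK and STAT rows are all below zero, those of the SOCS box ligase row are all above zero, and the other brakes and other adaptors rows have none.

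The genes whose pattern over the 6 libraries was most like that of each called gene were ranked by the root mean square difference of centred log2 CPM among 8890 other genes. Nearest to Pim3 were Trp53i11 (0.123), Sdf2l1 (0.137) and Dusp2 (0.143). Nearest to Pim2 were Ptms (0.087), Nt5dc2 (0.095) and Zfp422 (0.102). Among the 3 nearest to Socs3 were Cdpf1 (0.117) and Gucd1 (0.136), with means of 32.2 and 15.4 CPM in young and 57.9 and 26.2 CPM in aged libraries.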

How the data were processed

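RNA was measured in 3 young and 3 aged libraries, grouped by title. The authors deposited whole-number raw counts per gene symbol and library, with no normalization. Per the submitters' processing notes, the build was mm10 and the tools included STAR 2.5.3a, DESeq2 1.1 and Cufflinks 2.0. The counting tool, annotation and strand setting: not given in the sources used here.

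The counts were tested with edgeR 4.0.16 in R 4.3.3 (filterByExpr, minimum count 10 and minimum total 15; TMM; glmQLFit and glmQLFTest; Benjamini-Hochberg over 11805 genes, threshold 0.05). The SE is the absolute log2 change over the square root of F, and 95% intervals take the t quantile of that test. CPM are scaled by TMM unless library totals are named. The common biological coefficient of variation was 53%. Coordinates, and the length and GC content of the longest protein-coding transcript, came from GENCODE vM21 (GRCm38), with a length for 98.9% of tested genes. Promoters came from RefSeq. The offset for length and GC was a spline fit with 5 degrees of freedom for each, per library. Alternatives were DESeq2 1.42.0, limma-voom (limma 3.58.1), other scalings, filters and dispersion, a replicate block, the offset and leaving out each library. The code was tested on simulated data, in a single run of 11451 genes with 96 changed 2-fold and 98 changed 4-fold. There edgeR recovered 19.8% of the 2-fold and 58.2% of the 4-fold changes, and 8.4% of its calls were false. For DESeq2 these values were 28.1%, 67.3% and 26.2%, and for limma-voom 18.8%, 52% and 2.8%. The simulation drew equal numbers of rises and falls, with few genes changed, no scaling shift between groups and no length trend. Its rates may therefore not hold for the measured libraries.

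The 10 genes and the lists were chosen with earlier results of these data known. Named list genes are up to 4 called genes of smallest p per list, or the 2 of smallest p where none passed, plus Stat5a, Stat5b, Il2ra, Il2rb, Il2rg, Il7r, Jak1 and Jak3. The genes most alike are the 3 nearest of at least 5 CPM to each of the 3 members of smallest p, leaving out predicted genes. Stat3, Cul5, Kit, Il6ra, Il6st, Ifnar1, Ifnar2, Pias4, Ptprc and Bcl2 were named after their values were seen. Poisson intervals cover counting error only. Some genes that these rules name are not reported here.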

Additional observations from a re-analysis of the deposited data

How the results depend on the processing

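Over the 18 alternatives, Pim3 kept its direction and its call in each, while Socs3 lost its call in 4 and Pim2 in 8. With library totals as the scaling, 718 genes were higher and 2380 lower against 1325 and 961 with TMM, 1 of the 10 feedback genes was higher and 3 were lower, and Socs2 turned to -0.13. The length and GC offset gave 827 genes higher, or 725 together with the replicate block and 825 with the summed exon length of the GENCODE basic set (also used for levels per length), an alternative chosen after seeing the data because that set lacks the longest coding transcript of Pim2. With that exon length (1113 against 2045 bases) Pim2 turned to -0.13 and Socs2 passed at 0.38. DESeq2 called 1 feedback gene lower. Leaving out each library in turn gave 915 to 1344 genes higher, 399 to 849 lower (399 without young library 1 and 480 without young library 2) and 1 to 3 feedback genes higher, 1 without young library 1 or aged library 2. Among changes that did not pass, signs turned for Cish (-0.18 to 0.03 over the fits without a library), Socs1 (-0.07 to 0.03, and 0.0046 with upper quartile scaling), Socs4 (-0.34 to 1.06) and Socs7 (0.12 with the block and the offset together). The titles number the libraries but state no pairing. The correlations of same-numbered deviations were 0.018, 0.006 and 0.053. With deviations centred on groups of 3 libraries, these values cannot decide whether the libraries were paired. Young 1 and young 2 correlated best with aged 1, and young 3 with aged 3. With the replicate block 1208 genes were higher and 800 lower, and the 3 calls among the feedback genes remained (Pim3 1.64, Socs3 0.89, Pim2 0.74). Other causes of these shifts were not tested. Socs4, Socs5 and Socs7 had as few as 8, 7 and 17 counts in a library.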
